A study of Mus musculus with 4 samples.

Results

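Regulators of G protein signalling (RGS proteins) were followed in splenic Treg cells with and without Setd2. The members were the 8 genes named Rgs1, Rgs2, Rgs3, Rgs10, Rgs14, Rgs16, Rgs18 and Rgs19, picked by gene symbol out of 24087 genes in the deposited table. Treg cells (CD3+CD4+YFP+) had been sorted from the spleens of unchallenged C57BL/6 mice in which Foxp3-driven Cre, fused to YFP, deletes floxed Setd2 in Foxp3-expressing cells. The KO group was Foxp3Cre-YFPSetd2f/f and the CTRL group was Foxp3Cre-YFPSetd2f/+, so that both groups carried Cre and the controls also carried 1 floxed allele. Each group had 2 libraries (CTRL 1, CTRL 2, KO 1 and KO 2), each from cells pooled from 2 littermate mice, whose age and sex the labels do not give. Because the animals were pooled, the spread between libraries is a spread between pools.

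Chemokine receptors signal through heterotrimeric G proteins, mainly those with an inhibitory alpha subunit. An activated receptor loads the alpha subunit with GTP, which frees it from the beta and gamma subunits, and both then act on effectors that steer adhesion and migration. RGS proteins speed up GTP hydrolysis by the alpha subunit and so shorten the signal. In lymphocytes they are known for damping responses to chemokines, and Rgs1 in particular is a marker of activated and tissue-dwelling T cells. Setd2 places the histone mark H3K36me3 along transcribed genes.

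The 4 libraries rested on 32803683 to 35460567 reads, with 15913 to 19100 genes above 0, the most in CTRL 1. KO was compared with CTRL by limma on log2(FPKM + 1), where FPKM is fragments scaled by gene length and library total, over the 11399 genes that reached 1 FPKM in at least 2 libraries, and the Benjamini-Hochberg adjustment of p covered all of them. Setd2 mRNA, counted over the whole gene, was 23.4 and 25.3 FPKM in CTRL and 21.3 and 19.5 FPKM in KO (log2 fold change -0.24, SE 0.08, adjusted p 0.0970), so that the libraries stood in the labelled order without passing the test. The floxed part of the gene was not analysed separately. Treg markers summed to between 1068 and 1178 FPKM in every library, led by Ctla4 and including Foxp3, which is where the labelled cell type was checked. Foxp3 was 120.6 and 139.8 FPKM in CTRL and 111.6 and 119.2 FPKM in KO. Il2ra was 123.3 and 148.4 FPKM in CTRL and 95.4 and 117.3 FPKM in KO. Both KO libraries were thus below both controls for 2 of 5 Treg markers, and above them for 1 (Ikzf2), beside 35.5% and 29.0% of all genes tested. Of the 5, 0 passed the test. Markers of myeloid cells, B cells, plasma cells and erythroid cells were also present and uneven between libraries, and their levels are given beside those of Rgs1, Rgs2 and Rgs16. In bulk samples, fewer cells of a type and less RNA per cell cannot be told apart.

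Of the 8 members, 7 reached the filter and Rgs18 did not. Rgs1 was by far the highest, with a mean of 444.5 FPKM over the 4 libraries, which ranked it 145th of all genes in the table. Rgs10 followed at 201.4 FPKM, rank 290. The next group, Rgs2 (92.3 FPKM), Rgs16 (78.4 FPKM), Rgs19 (72.5 FPKM) and Rgs14 (70.9 FPKM), overlapped library by library between each gene and the next. Rgs3 was lower at 20.0 FPKM, and Rgs18 was the lowest of the members at 0.306 FPKM. The steps from Rgs1 to Rgs10, from Rgs10 to Rgs2, from Rgs14 to Rgs3 and from Rgs3 to Rgs18 held in every library without overlap. Summed over the 8 genes, the level was 984.7 and 950.7 FPKM in CTRL 1 and CTRL 2, and 1083 and 902.7 FPKM in KO 1 and KO 2. Rgs1 alone took 49.4%, 43.8%, 46.0% and 41.8% of it. The KO libraries were both the highest and the lowest in this sum. The order between genes depends on the gene length used to make FPKM. For Rgs1 the shortest length that turned its values into whole reads was 1330 bases, whereas all its annotated exons together span 6947 bases. Multiples of 1330 bases fit as well, so the length used is not known. A length longer than the one used would lower its FPKM in all 4 libraries alike.

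**Figure D1:**
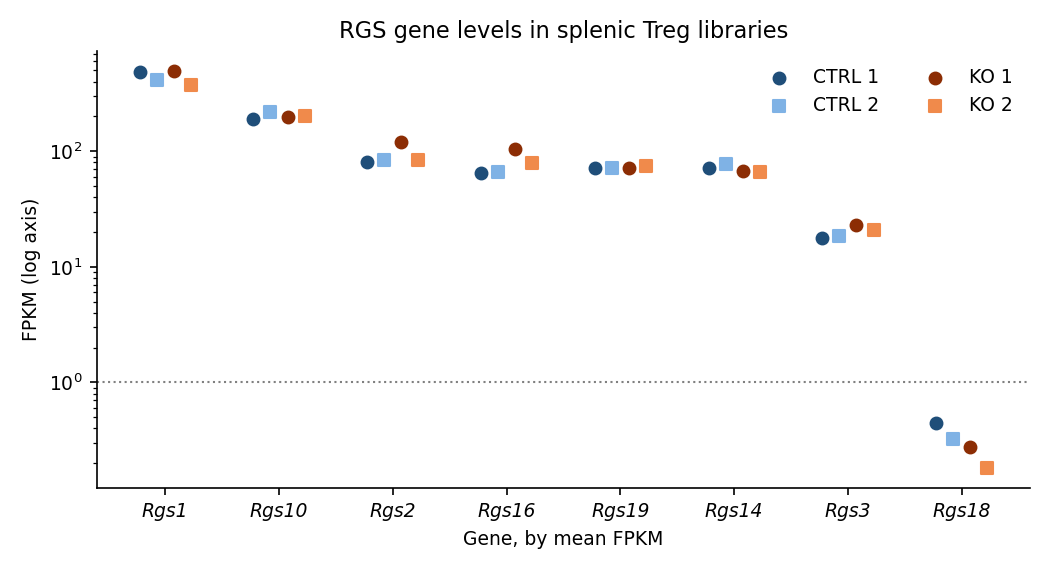
FPKM of each RGS gene (log axis) in CTRL 1, CTRL 2, KO 1 and KO 2, 1 point per library, with genes ordered by mean FPKM and a dotted line at 1 FPKM. Rgs1 lies highest in all 4 libraries, from 376.9 to 498.1 FPKM, and Rgs18 lies below the dotted line in all of them.

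Next, KO was compared with CTRL for the 7 members tested. None passed an adjusted p of 0.05 in either direction by limma (0 higher, 0 lower), beside 5.10% of all genes tested that were higher and 4.65% that were lower. At these rates fewer than 1 of 7 genes would be called in each direction. At an unadjusted p under 0.05, 2 members were higher (Rgs3 and Rgs16) and 0 were lower, beside 16.3% and 18.4% of all genes. Rgs14 was lower at that level without the filter, with FPKM scaled to the same sum, with quantile normalization and without CTRL 1. With limma-voom on reads recovered from the FPKM values, 1 member, Rgs3, passed (adjusted p 0.0414), beside 7.98% of all genes higher and 8.90% lower by that test. Both KO libraries lay above both CTRL libraries in 3 of the 7 (Rgs2, Rgs3 and Rgs16), where 29.0% of all genes did, and below them in 1 (Rgs14), where 35.5% did. Under a looser rule (unadjusted p under 0.05 for protein-coding genes that averaged over 5 FPKM in CTRL or in KO), 2 of 7 members were higher and 0 lower, against 18.0% and 18.9% of genes eligible. The members had a median log2 fold change of 0.03, and all genes tested one of -0.02. With 7 genes, none of these shares is read as particular to the RGS members.

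**Figure D2:**
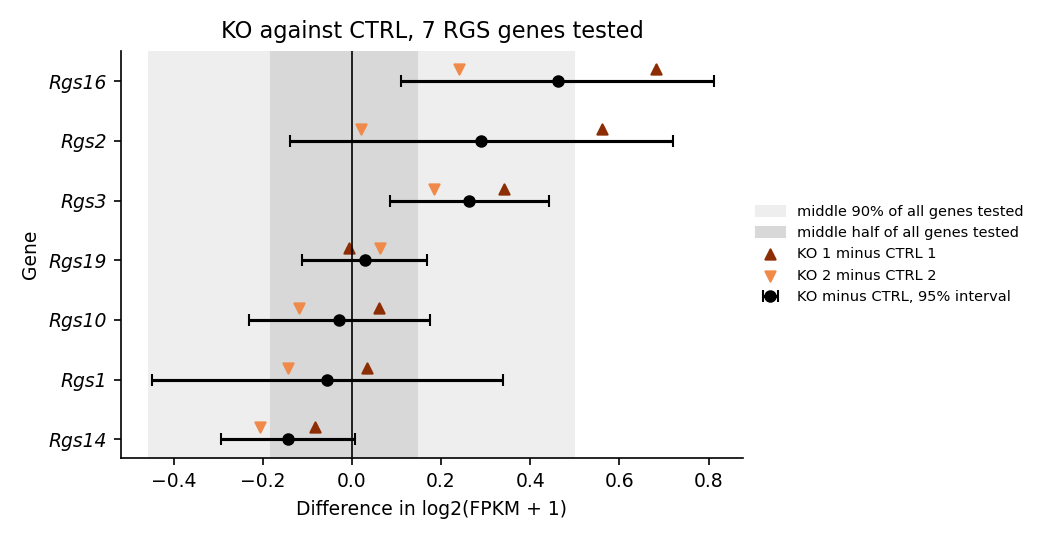
Difference between KO and CTRL in log2(FPKM + 1) for the 7 RGS genes tested, with 95% intervals from limma, and the differences between libraries of the same number as triangles; grey bands mark the middle 50% and 90% of all genes tested. Intervals of Rgs16 and Rgs3 lie above 0 before adjustment, and for Rgs2 the KO 1 triangle (0.56) and the KO 2 triangle (0.02) lie far apart.

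Rgs16 (ENSMUSG00000026475, chr1:153740349-153745468, plus strand, GRCm38) encodes a regulator of inhibitory and Gq-type alpha subunits that is induced when T cells are activated. It had the largest estimate of the members. Its level was 64.6 and 66.3 FPKM in CTRL 1 and CTRL 2, and 104.3 and 78.5 FPKM in KO 1 and KO 2. Both KO libraries were above both controls, but KO 1 was further from KO 2 than KO 2 was from the controls. The means were 65.5 ± 1.22 FPKM in CTRL and 91.4 ± 18.2 FPKM in KO (SD, n = 2 each), 1.40 times the control level. The log2 fold change of 0.46 (SE 0.14, 95% interval 0.11 to 0.81) gave an unadjusted p of 0.0198 and an adjusted p of 0.0877 by limma, just short of the threshold. It was 0.26 without KO 1 and 0.66 without KO 2. At least 4949 reads lay behind each of these values, so counting error was small beside the gap between the KO pools. An exon of Gm28513 overlaps on the other strand, and reads from it could not be separated because the use of strand was not stated.

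Rgs2 (ENSMUSG00000026360, chr1:143999338-144004161, minus strand) acts mainly on Gq-type alpha subunits. It was found at 81.3 and 83.2 FPKM for CTRL 1 and CTRL 2, and 120.4 and 84.3 FPKM in KO 1 and KO 2. The rise in the KO mean was carried by KO 1, while KO 2 was close to both controls. KO exceeded CTRL by 0.29 on the log2 scale (SE 0.17, 95% interval -0.14 to 0.72, adjusted p 0.279). It was 0.04 without KO 1 and 0.54 without KO 2.

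Rgs2 and Rgs16 thus shared a profile, with close controls and KO 1 well above the other libraries, and their promoters are shown for that reason. The RefSeq table (GRCm38.p6) holds a promoter for 5 of the 8 members. The 250 bases before each start site are printed on the gene's own strand, at chr1:144004150-144004399 (minus strand) for Rgs2 and chr1:153740103-153740352 (plus strand) for Rgs16. Capitals mark CCAAT and GGGCGG on either strand (the CCAAT box and the GC box) and TAAAAG on the printed strand.
Rgs2: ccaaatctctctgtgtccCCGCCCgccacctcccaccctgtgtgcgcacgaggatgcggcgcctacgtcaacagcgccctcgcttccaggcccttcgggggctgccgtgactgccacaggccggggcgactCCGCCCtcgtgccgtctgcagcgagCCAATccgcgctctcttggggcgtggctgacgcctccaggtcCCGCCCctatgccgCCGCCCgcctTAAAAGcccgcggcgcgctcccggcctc
Rgs16: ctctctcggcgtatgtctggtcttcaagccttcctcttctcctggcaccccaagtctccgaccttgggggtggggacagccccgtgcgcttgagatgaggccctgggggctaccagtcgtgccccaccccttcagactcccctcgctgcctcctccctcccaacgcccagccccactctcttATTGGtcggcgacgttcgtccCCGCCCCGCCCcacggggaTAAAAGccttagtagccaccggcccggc
TAAAAG occupies bases 28 to 23 before the start in both, the place where a TATA-like element usually sits. Rgs2 also holds 1 CCAAT box, 94 to 90 bases before the start, and 4 GC boxes. Rgs16 holds 1 CCAAT box, on the reverse strand at 68 to 64 bases, and 2 GC boxes that overlap by 1 base. The search for TAAAAG was chosen after reading these sequences. It occurs on the printed strand of 7.70% of all 32851 promoter windows of this length, CCAAT on either strand in 33.8%, GGGCGG on either strand in 32.7%, and all of these together in 0.511%. The combination was thus also formed after both genes had been picked and read, so 0.511% does not measure how unusual the pair is. None of the 6 windows of Rgs3, Rgs10 and Rgs19 holds TAAAAG or CCAAT on either strand. TATAAA (12.4% of windows), CACGTG (6.02%), TGACGTCA (1.55%) and TGANTCA (6.75%) were searched on both strands too, and neither printed window holds them. A match of letters is a description and not a site in use. GC content was 72.4% in the Rgs2 window and 66.4% in that of Rgs16.

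Rgs3 (ENSMUSG00000059810, chr4:62559847-62704001, plus strand) damps signalling through inhibitory and Gq-type alpha subunits. It was 17.8 and 18.4 FPKM in CTRL 1 and CTRL 2, and 22.9 and 21.0 FPKM in KO 1 and KO 2. The groups did not overlap, and here the libraries of each group lay close together. The means were 18.1 ± 0.38 FPKM in CTRL and 22.0 ± 1.31 FPKM in KO (SD, n = 2 each), 21.2% higher in KO. The log2 fold change of 0.26 (SE 0.07, 95% interval 0.08 to 0.44) had the smallest p of the members, 0.0127 unadjusted and 0.0719 adjusted by limma. It kept a positive sign with each library left out, between 0.20 and 0.32. Its adjusted p ran from 0.0414 to 0.232 over all alternatives.

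Rgs14 (ENSMUSG00000052087, chr13:55369732-55384687, plus strand) joins an RGS domain to Ras-binding domains and a GoLoco motif, which holds inhibitory alpha subunits in their GDP-bound form. It was the 1 member with both KO libraries below both controls. Its level was 72.1 and 76.8 FPKM in CTRL 1 and CTRL 2, and 68.1 and 66.5 FPKM in KO 1 and KO 2. The KO mean was 9.64% below that of the controls. The log2 difference of -0.14 (SE 0.06, 95% interval -0.29 to 0.01) did not pass (adjusted p 0.156). Under quantile normalization it was -0.23 (adjusted p 0.0668, within a range of 0.0668 to 0.398 over all alternatives).

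Rgs1 (ENSMUSG00000026358, chr1:144242296-144249242, minus strand) restrains chemokine receptor signalling through inhibitory and Gq-type alpha subunits. It was 486.8 and 416.4 FPKM in CTRL 1 and CTRL 2, and 498.1 and 376.9 FPKM in KO 1 and KO 2. The libraries numbered 1 were the high ones and those numbered 2 the low ones in both groups, so the groups overlapped fully. The difference was -0.06 on the log2 scale (SE 0.15, adjusted p 0.827), and its 95% interval of -0.45 to 0.34 leaves room for a change of moderate size in either direction. It was 0.06 without CTRL 1 and 0.15 without KO 2.

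Rgs10 (ENSMUSG00000030844, chr7:128373621-128418758, minus strand), a small protein made up of little more than the RGS domain, was 189.8 and 217.5 FPKM in CTRL 1 and CTRL 2, and 198.1 and 200.3 FPKM in KO 1 and KO 2. The KO libraries lay between the controls. Their log2 difference from CTRL was -0.03 (SE 0.08, 95% interval -0.23 to 0.17, adjusted p 0.827), and it was 0.07 without CTRL 2 and -0.16 under quantile normalization. Rgs19 (ENSMUSG00000002458, chr2:181688419-181693977, minus strand), also called GAIP and a partner of inhibitory alpha subunits on intracellular membranes, was 71.7 FPKM in both controls, 71.4 in KO 1 and 74.9 in KO 2. It was the steadiest of the members. Its log2 fold change of 0.03 (SE 0.05, adjusted p 0.749) had the narrowest 95% interval, -0.11 to 0.17, and was -0.06 under quantile normalization.

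Rgs18 (ENSMUSG00000026357, chr1:144752683-144775435, minus strand) is known from megakaryocytes and platelets. It was 0.443 and 0.326 FPKM in CTRL 1 and CTRL 2, and 0.274 and 0.182 FPKM in KO 1 and KO 2. At least 9, 7, 6 and 4 reads lay behind these values, and no test was made. Of 5 platelet and megakaryocyte markers, 3 reached the filter and 0 passed the test, and their summed level was 5.29 and 6.22 FPKM in CTRL and 5.99 and 5.75 FPKM in KO. The defining genes Ppbp and Pf4 were between 1.04 and 2.19 FPKM.

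Among the members, Rgs1, Rgs2 and Rgs16 differed most between the 2 KO pools. KO 1 exceeded KO 2 by 0.40 on the log2 scale for Rgs1, 0.51 for Rgs2 and 0.40 for Rgs16. Of all genes tested, 6.72%, 4.64% and 6.66%, respectively, had a larger gap between the KO pools. The controls differed by 0.22 for Rgs1, in the same sense by library number, and by 0.03 and 0.04 for Rgs2 and Rgs16. Summed markers of myeloid, plasma, B and erythroid cells were also higher in KO 1 than in KO 2. Between the controls these sums were higher in CTRL 1, as Rgs1 was but Rgs2 and Rgs16 were not. The 6 myeloid markers summed to 202.0 and 127.2 FPKM in CTRL 1 and CTRL 2, and 241.2 and 102.6 FPKM in KO 1 and KO 2, and 6 of 6 were higher in both libraries numbered 1 than in both numbered 2, a pattern that 1163 of 11399 genes had. Lyz2, the lysozyme gene of macrophages and neutrophils, led them with 60.0 to 153.1 FPKM. Higher in both libraries numbered 1 were also 3 of 6 B cell, 2 of 4 plasma cell and 3 of 4 erythroid markers. The same held for 1 of 3 NK cell, 1 of 5 platelet and megakaryocyte and 0 of 2 CD8 T cell markers. Among markers of the sorted cells it held for 1 of 5 Treg markers (Ctla4) and 0 of 4 T cell markers. The order KO 1, CTRL 1, CTRL 2, KO 2 was the same for Rgs1, for the myeloid sum and for 3 of the 6 myeloid markers. It was also that of 3 of the 6 B cell markers and of 1 of the 5 Treg markers, and 244 of 11399 genes had it. The Treg marker was Ctla4, with 546 and 542 FPKM in CTRL and 656 and 534 FPKM in KO. Plasma cell markers summed to 97.7 and 75.4 FPKM in CTRL and to 122.2 and 88.8 FPKM in KO. Xbp1 was the largest part, with 53.7 and 56.4 FPKM in CTRL and 70.0 and 63.2 FPKM in KO, and did not follow the library number. Jchain did, with 35.8 and 13.6 FPKM in CTRL and 41.0 and 15.4 FPKM in KO. B cell markers summed to 26.2 and 21.8 FPKM in CTRL and to 41.0 and 24.5 FPKM in KO, and erythroid markers to 22.5 and 4.16 FPKM in CTRL and to 38.4 and 11.4 FPKM in KO. The erythroid sum came mostly from Hba-a1 and Hba-a2 (1.70 to 18.5 FPKM). Hbb-bs was above 0 only in KO 1 (0.133 FPKM), and Hbb-bt had no values. KO 1 was the highest library in the myeloid, plasma cell, B cell and erythroid sums. The Treg marker sum was highest in KO 1 too (1068 and 1137 FPKM in CTRL, 1178 and 1089 FPKM in KO). The remaining lists did not share this. CD8 T cell markers summed to 8.49 and 11.4 FPKM in CTRL and to 10.6 and 11.3 FPKM in KO, higher in the libraries numbered 2. NK cell markers summed to 3.2 and 2.4 FPKM in CTRL and to 2.5 and 2.4 FPKM in KO, highest in CTRL 1. The platelet and megakaryocyte sum given above was lowest in CTRL 1. The 4 T cell markers (Cd3e, Cd3d, Cd3g and Cd4) summed to 1292 and 1333 FPKM in CTRL and to 1177 and 1248 FPKM in KO. Both KO sums were below both controls. So were the KO libraries for 3 of the 4 genes, beside 35.5% of all genes tested. None of the marker genes of any list passed the test between KO and CTRL (0 higher and 0 lower of 31 tested by limma). At an unadjusted p under 0.05, 5 were higher and 3 lower, beside 16.3% and 18.4% of all genes. Higher were 2 of 5 B cell markers tested (Cd22 and Cd79b) and 2 of 3 plasma cell markers tested (Prdm1 and Xbp1). The Treg marker Ikzf2 was higher too. Lower were the Treg marker Il2ra, the T cell marker Cd3g and the platelet marker Ppbp. By limma-voom 2 were higher (1 B cell and 1 plasma cell marker) and 0 lower, beside 7.98% and 8.90%. The part of other cells in the levels of Rgs1, Rgs2 and Rgs16 was not tested.

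**Figure D3:**
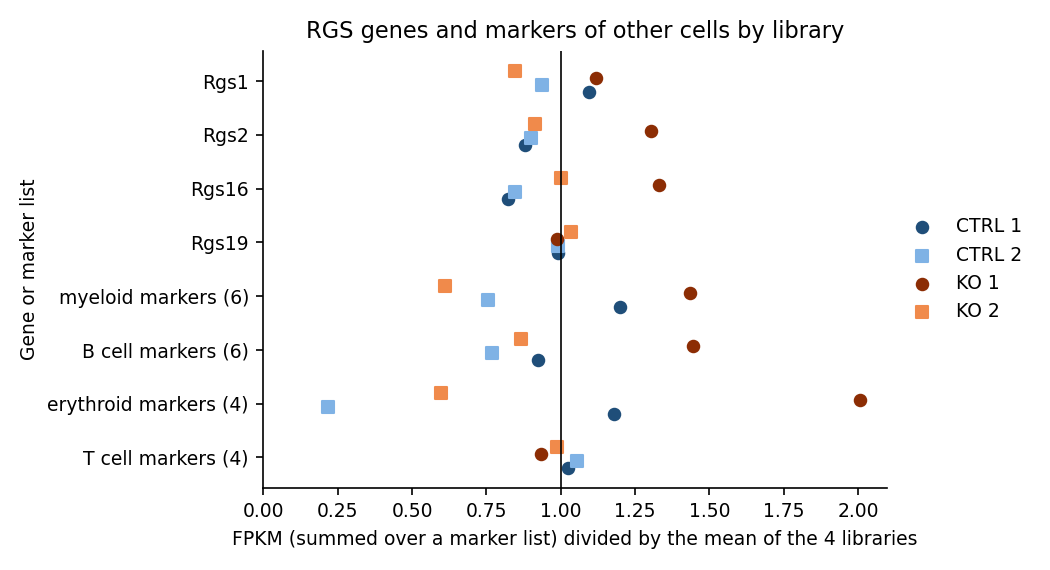
FPKM of 4 RGS genes, and summed FPKM of 4 marker lists, in each library divided by the mean of the 4 libraries (1 point per library). KO 1 is the highest library for Rgs1, Rgs2, Rgs16 and the myeloid, B cell and erythroid markers, whereas Rgs19 and the T cell markers stay close to 1 in all 4.

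Most other RGS genes lay below the filter in these cells. Of 14 other RGS genes, 3 reached the filter, and 0 of them passed the test by limma. At an unadjusted p under 0.05, 1 was higher and 2 were lower, beside 16.3% and 18.4% of all genes. By limma-voom on recovered reads, 0 were higher and 2 lower, beside 7.98% and 8.90%. Rgs9 and Rgs11 encode members of the subfamily that pairs with the beta subunit Gnb5. Rgs9 was 4.20 and 4.64 FPKM in CTRL and 3.37 and 2.78 FPKM in KO (-0.41 on the log2 scale, adjusted p 0.0793). Rgs11 was 2.42 and 2.16 FPKM in CTRL and 0.508 and 1.28 FPKM in KO (-0.83 on the log2 scale, adjusted p 0.0736), with KO 1 the lowest, and it overlaps exons of Arhgdig on the other strand. Gnb5 itself, at up to 2.85 FPKM, had a log2 fold change of 0.06 (adjusted p 0.799). Rgs12, a large multidomain protein, was 1.66 and 1.83 FPKM in CTRL and 2.87 and 2.28 FPKM in KO (0.38 on the log2 scale, adjusted p 0.115). The groups did not overlap for Rgs9, Rgs11 and Rgs12. Among all genes tested, 29.0% had both KO libraries above both controls and 35.5% had both below. With 3 genes, these counts are not read as particular to RGS genes.

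The alpha subunits on which RGS proteins act were examined next. Of 12 genes, 9 were tested. At an unadjusted p under 0.05, 3 were higher and 0 lower, beside 16.3% and 18.4% of all genes. By limma-voom 2 were higher, beside 7.98%. By limma 1 rose, beside 5.10% of all genes. This was Gnai2, which encodes the main inhibitory alpha subunit downstream of lymphocyte chemokine receptors. It was 430.9 and 454.9 FPKM in CTRL 1 and CTRL 2, and 590.3 and 608.7 FPKM in KO 1 and KO 2. Both pools of each group lay close together and the groups were well apart. KO exceeded CTRL by 0.44 on the log2 scale (SE 0.06, 95% interval 0.28 to 0.59, adjusted p 0.0351 by limma). The other inhibitory subunit present, Gnai3, was 60.6 and 58.7 FPKM in CTRL and 56.7 and 54.0 FPKM in KO (-0.11 on the log2 scale, adjusted p 0.248). Gnaq, of the Gq type, was 7.60 to 8.34 FPKM with overlapping groups. The other tested genes of the Gq class were Gna11 (-0.20 on the log2 scale, adjusted p 0.213), Gna15 and Gna14. Gna15 was 17.9 FPKM in both controls and 21.9 and 28.3 FPKM in KO (0.45 on the log2 scale, adjusted p 0.0779). Gna14 was 1.40 and 1.16 FPKM in CTRL and 2.14 and 2.18 FPKM in KO (0.48 on the log2 scale, adjusted p 0.0654). Set against Gnai2, the summed RGS members gave 2.29 and 2.09 FPKM per FPKM of Gnai2 for the CTRL libraries 1 and 2, and 1.84 and 1.48 for the KO libraries 1 and 2. This ratio was formed after the values had been seen and was not tested. The RGS sums overlapped between groups and Gnai2 did not.

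Genes that work beside the RGS members were then counted by their role. Counts at an unadjusted p under 0.05 stand beside 16.3% of all genes higher and 18.4% lower. Those by limma-voom stand beside 7.98% and 8.90%. Of 14 beta and gamma subunits, 8 were tested and 0 passed by limma (3 higher and 0 lower at an unadjusted p under 0.05, and 1 higher by limma-voom), the most abundant being Gnb2 with 159.6 and 174.5 FPKM in CTRL and 201.2 and 193.4 FPKM in KO (0.24 on the log2 scale, adjusted p 0.0767). Of 12 other regulators of alpha subunits, all 12 were tested and 2 fell by limma, beside 4.65% of all genes (1 higher and 3 lower at an unadjusted p under 0.05, and 1 higher and 2 lower by limma-voom). Arhgef12, a guanine nucleotide exchange factor with an RGS-like domain that reads Gna12 and Gna13, went from 6.42 and 6.27 FPKM to 4.47 and 4.04 FPKM (-0.48 on the log2 scale, adjusted p 0.0416). Snx14, a sorting nexin with an RGS-like domain, went from 25.3 and 23.1 FPKM to 17.7 and 18.5 FPKM (-0.40 on the log2 scale, adjusted p 0.0420). Arhgef1, the most abundant of them and of the same class as Arhgef12, was 485.5 and 503.7 FPKM in CTRL and 449.4 and 461.4 FPKM in KO (-0.12 on the log2 scale, adjusted p 0.202).

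Receptor kinases and arrestins, which switch receptors off upstream of the alpha subunit, gave 0 calls among 7 genes tested by limma (1 higher and 1 lower at an unadjusted p under 0.05, and 0 calls by limma-voom). Grk2 was the most abundant of them, with 197.8 and 205.7 FPKM in CTRL and 222.9 and 224.8 FPKM in KO (0.15 on the log2 scale, adjusted p 0.119). Of 24 chemoattractant receptors, 19 were tested, with a median log2 fold change of 0.30. By limma 2 rose and 0 fell, beside the 5.10% and 4.65% of all genes. At an unadjusted p under 0.05, 9 were higher and 2 lower, beside 16.3% and 18.4%. By limma-voom 6 were higher and 2 lower, beside 7.98% and 8.90%. Cxcr3 rose from 69.1 and 62.3 FPKM to 89.1 and 95.6 FPKM (0.49 on the log2 scale, adjusted p 0.0371), and Cxcr5 from 21.3 and 18.6 FPKM to 30.3 and 30.4 FPKM (0.59 on the log2 scale, adjusted p 0.0351). An exon of Bcl9l overlaps Cxcr5 on the other strand. S1pr1, the egress receptor and the most abundant of the list, overlapped between groups at 132.1 to 165.6 FPKM. Of 19 downstream effectors, 17 were tested and 2 fell, beside the same 4.65%. At an unadjusted p under 0.05, 3 were higher and 3 lower, and by limma-voom 1 was higher and 2 lower. The 2 that fell by limma were Plcb2 and Pik3r5. Plcb2, a phospholipase C driven by G proteins, went from 32.7 and 33.9 FPKM to 24.7 and 24.4 FPKM (-0.42 on the log2 scale, adjusted p 0.0351). Pik3r5, the adaptor that couples PI3-kinase gamma to beta and gamma subunits, went from 31.2 and 32.7 FPKM to 22.0 and 24.8 FPKM (-0.44 on the log2 scale, adjusted p 0.0406). The GTPase Rac2, most abundant here, was 621.2 and 670.7 FPKM in CTRL and 777.1 and 797.0 FPKM in KO (0.29 on the log2 scale, adjusted p 0.0558). The 7 calls of these lists kept their direction with each library left out, at adjusted p from 0.0984 to 0.163, in fits that called at most 1 gene of all in either direction. In the 10 other settings Gnai2, Arhgef12, Cxcr5 and Plcb2 passed in 9, and Snx14, Cxcr3 and Pik3r5 in 8.

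**Figure D4:**
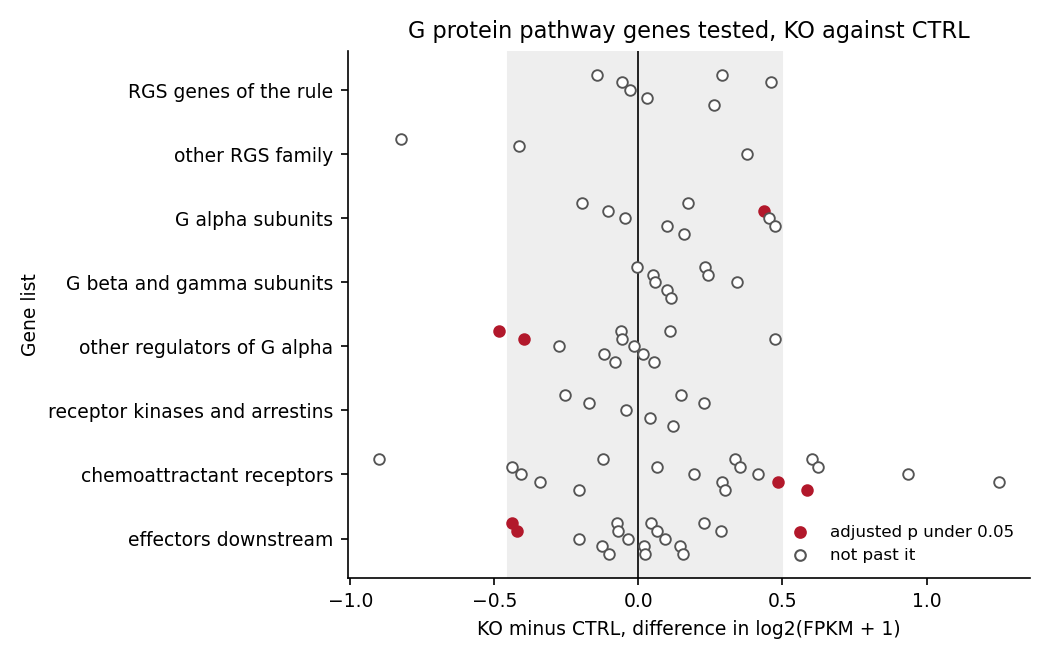
Difference between KO and CTRL in log2(FPKM + 1) for the RGS genes and for 7 lists of genes of the same pathway, 1 point per gene tested, spread vertically only for legibility; the grey band marks the middle 90% of all genes tested and filled points passed an adjusted p of 0.05. No RGS gene is filled, and the 7 filled points are Gnai2, Cxcr3 and Cxcr5 to the right and Arhgef12, Snx14, Plcb2 and Pik3r5 to the left.

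Last, genes with the library profile most like those of Rgs3 and Rgs14 were sought among 8645 genes that averaged over 5 FPKM in CTRL or in KO, by the mean absolute difference of centred log2(FPKM + 1) over the 4 libraries. For Rgs3 they were Atg7 (0.0038), Birc3 (0.0054) and Gch1 (0.0069). Birc3, an inhibitor of apoptosis, was 58.9 and 60.1 FPKM in CTRL and 75.0 and 68.7 FPKM in KO. For Rgs14 they were Flot2 (0.0032), Socs7 (0.0040) and Cog7 (0.0061). With 4 libraries many genes can share a profile closely, and none of these 6 genes passed the test.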

How the data were processed

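Poly(A) RNA of splenic Treg cells was sequenced by the authors as read pairs, 2 pooled libraries per genotype. Per the submitters' processing notes, FastQC, HISAT2 2.2.1, featureCounts 2.0.1, edgeR 3.34.0 and the mm10 build were used. The deposited values are FPKM per gene, made by the authors. Not given in the sources used here are the gene lengths behind FPKM, the annotation release, whether strand was used and how multi-mapped reads were treated. Columns labelled WT were taken as the CTRL libraries with the same numbers.

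Multiplying FPKM by candidate gene lengths gave whole reads for 19886 of the 19888 genes above 0 (99.99%, tolerance 0.01). Such reads are lower bounds, since a factor common to the 4 libraries cannot be seen. Because the unit was not counts, KO was compared with CTRL by limma 3.58.1 (R 4.3.3; lmFit, eBayes with an intensity trend) on log2(FPKM + 1), a scale that understates changes of low genes. Genes needed 1 FPKM in at least 2 libraries (11399 genes). Two-sided p-values were adjusted over these genes (Benjamini-Hochberg) and called under 0.05. The looser rule in the text takes its thresholds from the methods of the study. The procedure was also run on simulated data, and no error rate for these libraries is drawn from that run. Precision was set by the spread between 2 pools per group (median SE 0.09, log2). P-values measure only the spread between these pools.

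The members and the gene lists were chosen with earlier results of these data known. Genes named were the members, Setd2, from each pathway list the genes past the threshold and the most abundant one, and the 3 genes closest in profile to the member with the smallest adjusted p in each direction. Rgs9, Rgs11, Rgs12, Gnb5, Gnai3, Gnaq, Gna11, Gna14, Gna15 and the markers were named outside this rule, after their values were seen. Gene positions came from GENCODE vM21 (GRCm38) and promoters from RefSeq (GRCm38.p6). Alternatives were a pseudocount of 0.1, other filters, scalings and variance models, the replicate number as a block, limma-voom on recovered reads, and each library left out. Python 3.11.15, numpy 2.4.6, pandas 2.3.3 and matplotlib were used for the rest.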

Additional observations from a re-analysis of the deposited data

How the results depend on the processing

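The number of RGS members lower in KO was 0 under every alternative. The number higher was 0 under all but 3: it was 1 once the replicate block was added (Rgs16, adjusted p 0.0387), 1 with limma-voom on recovered reads (Rgs3, adjusted p 0.0414), and 2 under the looser rule on unadjusted p. It was 0 with each library left out. Of 98 values of single members under an alternative, 91 kept their direction and side of the threshold. The direction turned for Rgs19 under quantile normalization (-0.056) and without KO 2 (-0.0058), for Rgs1 without CTRL 1 (0.06) and without KO 2 (0.15), and for Rgs10 without CTRL 2 (0.069). Quantile normalization moved Rgs10 from -0.03 to -0.16 and Rgs14 from -0.14 to -0.23. Leave-one-out values ran from 0.26 to 0.66 for Rgs16, 0.04 to 0.54 for Rgs2, -0.26 to 0.15 for Rgs1, -0.127 to 0.069 for Rgs10 and -0.0058 to 0.062 for Rgs19. Over all genes, 581 were higher and 530 lower in KO. These counts were 968 and 805 with the block, 910 and 1014 with limma-voom, and 0 and 0 without the filter (limma; 2212 and 2251 at an unadjusted p under 0.05), and 315 were higher without the trend. With 1 library left out, 0 to 1 were higher and 0 to 1 lower, so that the absence of calls there says nothing about single genes. The cause of these shifts was not tested, apart from the smaller number of libraries when 1 is left out. The labels number the libraries but do not say that a number marks a shared litter or day. Deviations of libraries numbered 1 from their group means correlated across 11399 genes (which are not independent) at Pearson r 0.342 and Spearman 0.055. These 2 values differ and do not decide whether libraries of the same number share something. As no label states a pairing, it was not taken as given, and the block is reported only here.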
